A study of Mus musculus with 16 samples.

Results

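The genes described here mark monocytes and were followed in CD11b+ cells of mouse tumours. Ly6c2, Plac8, Vcan, Chil3, Fn1 and F13a1 are commonly used for classical monocytes, and Ace and Spn for non-classical monocytes. The members were chosen by gene symbol, 8 of the 24421 genes in the count files, and all 8 were found and passed the filter on low counts. The 16 libraries came from MC38-Ova tumours, a subcutaneous colorectal cancer line that expresses ovalbumin, grown in C57BL/6 mice carrying a Kaede transgene, with no treatment given (labelled as control) and 1 batch label for all libraries. Light on the tumour turned the green Kaede protein of the cells inside it red, so that Kaede-red cells were those already in the tumour at labelling and Kaede-green cells were those that had entered since. Tumours were collected 24h or 72h later, CD11b+ leukocytes (live and CD45+, without TER119 or NK1.1, and Kaede+) were sorted by colour, and each of the 4 groups had 4 libraries: Kaede-green 24h, Kaede-red 24h, Kaede-green 72h and Kaede-red 72h. The Kaede-red cells at 72h are those of the labelled cells that were still there, and a Kaede-green cell at 72h may have been in the tumour for any time up to then. Per the study's methods, all tumours were labelled on the same day after injection, so those of 72h were also older. Tumour age and time since labelling cannot be told apart, and a rise or fall with time compares different tumours. A figure legend of the study describes the points of these libraries as tumours from independent mice. The labels do not say which Kaede-green and Kaede-red libraries came from the same mouse, so p-values measure the spread between these libraries.

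Monocytes leave the bone marrow as Ly6C-high classical cells, which enter inflamed tissue and tumours and there become macrophages or dendritic cells. In blood, some classical monocytes turn into Ly6C-low non-classical cells, which patrol the vessel wall and depend on the nuclear receptor Nr4a1. In tumours, classical monocytes are the main source of newly formed macrophages, and their surface and secreted products are lost or kept to different degrees as they mature.

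Total counts ranged from 3216858 to 15423085 per library. The ribosomal RNA gene Rn45s took 55.8% to 93.4% of them, with a median of 91.3% in Kaede-green 24h, 75.7% in Kaede-red 24h, 88.1% in Kaede-green 72h and 68.2% in Kaede-red 72h libraries, which left 468092 to 5472480 counts for all other genes. Levels are given below as CPM, that is read counts relative to the size of a library after scaling by the trimmed mean of M-values (TMM). The macrophage gene Adgre1, as a check of the labels, lay between 11.4 and 21 CPM in the 8 Kaede-green libraries and between 25.4 and 57.4 CPM in the 8 Kaede-red libraries. The T cell marker Cd3e (at most 0.510 CPM) and the lists of B cell, eosinophil and epithelial markers (at most 3.67 CPM summed) were near 0 in every library. These are bulk libraries, in which fewer cells of a type and less RNA per cell cannot be told apart.

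The antigen recognised by Ly6C antibodies is encoded by Ly6c2 and by its neighbour Ly6c1, and their counts cannot be fully separated. Ly6c2 lies on chr15:75108158-75111970 on the minus strand (mm10), and the coding sequences of the 2 genes are 393 bases each and identical at 384, or 97.7%. Of all 150-base windows in the exons of all annotated Ly6c2 transcripts, 1.43% also occur in Ly6c1, as do 13.9% of 50-base windows. The opening 120 coding bases, which lie in exons 2 and 3, are shown because they hold 6 of the 9 differing bases, in capitals (GENCODE vM21 annotation of mm10, minus strand of chromosome 15, from 75110578 to 75111667 for Ly6c2 and from 75047420 to 75048511 for Ly6c1, with an intron between the exons).
Ly6c2: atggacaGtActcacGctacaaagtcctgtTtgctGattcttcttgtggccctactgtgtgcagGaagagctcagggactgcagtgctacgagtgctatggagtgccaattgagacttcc
Ly6c1: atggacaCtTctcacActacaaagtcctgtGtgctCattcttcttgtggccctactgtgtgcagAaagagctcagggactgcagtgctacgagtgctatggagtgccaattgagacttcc
The 2 genes differ more before their start sites, where 164 of 284 aligned columns (57.8%) over 250 bases were identical. The count of Ly6c2 was 2.54 to 5.88 times that of Ly6c1 in every library.

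Plac8 and Ace had the most unlike courses among the members, as described below, and their promoters are shown for that reason. Each is the 250 bases before the RefSeq start site (GRCm38.p6), with matches to GAGGAA, a sequence bound by ETS factors such as PU.1, on either strand in capitals. Plac8 lies on the minus strand, with the window at chr5:100572206-100572455, and Ace on the plus strand, with the window at chr11:105967698-105967947.
Plac8: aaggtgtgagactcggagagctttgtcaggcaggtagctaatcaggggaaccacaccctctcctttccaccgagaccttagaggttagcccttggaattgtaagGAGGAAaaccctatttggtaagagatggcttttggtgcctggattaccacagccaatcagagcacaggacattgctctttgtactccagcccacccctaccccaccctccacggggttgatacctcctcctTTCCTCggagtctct
Ace: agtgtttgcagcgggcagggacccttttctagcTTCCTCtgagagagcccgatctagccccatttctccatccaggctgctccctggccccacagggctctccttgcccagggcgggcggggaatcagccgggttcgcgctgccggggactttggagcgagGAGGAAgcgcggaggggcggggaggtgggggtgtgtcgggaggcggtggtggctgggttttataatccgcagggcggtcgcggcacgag
Both windows hold 2 matches. RefSeq promoters were found for 7 of the 8 members (not Fn1), of which 4 held GAGGAA (Ly6c2, Plac8, F13a1 and Ace), against 23.3% of 32851 promoter windows. The C/EBP motif TTGCNNAA was in 0 of the 7, against 9.56% of all windows. These are matches of letters only.

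**Figure D1:**
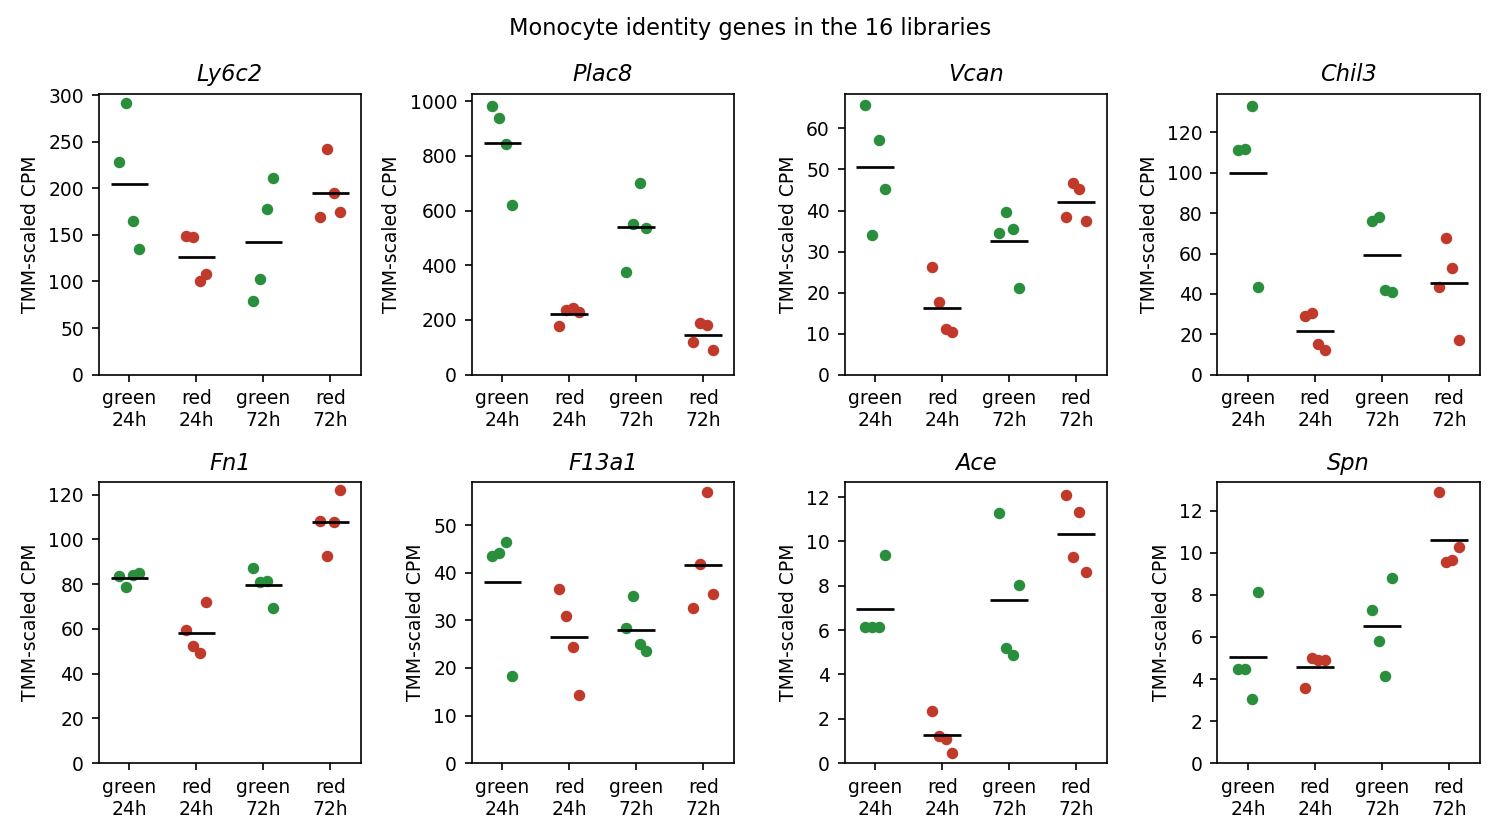
Level of each of the 8 genes, as TMM-scaled CPM on a linear axis from 0, in the 16 libraries, with 1 point per library, green for Kaede-green and red for Kaede-red, and a bar at the mean of each group of 4. Plac8 is lower in every Kaede-red than in every Kaede-green library, while Ace is low in Kaede-red 24h libraries only.

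At 24h after labelling, 4 of the 8 genes were lower in Kaede-red than in Kaede-green cells by edgeR's quasi-likelihood test (adjusted p under 0.05 over all 9642 genes tested), and none was higher. These were Plac8, Vcan, Chil3 and Ace, by 3.07-fold to 5.44-fold. Of all genes tested, 4.30% were lower at 24h and 7.51% differed in either direction. At 72h, Plac8 alone passed, and it was lower by 3.73-fold, against 8.76% of all genes lower and 16.8% in either direction. From 24h to 72h, 5 of the 8 genes rose in Kaede-red cells (Vcan, Chil3, Fn1, Ace and Spn), against 4.91% of all genes higher and 8.67% in either direction, and none fell, although Plac8 passed as lower in DESeq2. In Kaede-green cells 0 of the 8 passed, as did 0.00% of all genes by edgeR, where 835 genes had an unadjusted p under 0.05 (3 of the 8) and DESeq2 called 13 (0 of the 8). The change of the red-green difference between the times passed for Vcan and Ace, 2 of 8, against 0.767% of all genes. Those 74 genes became 2 to 157 when 1 library was left out. Ly6c2 and F13a1 passed in no comparison of this fit, but did under some alternatives given below. By the libraries themselves, 5 of the 8 genes were lower in every Kaede-red than in every Kaede-green library at 24h, against 5.44% of all genes, and at 72h 3 did not overlap (2 higher and 1 lower), against 22.5% of all genes in either direction. With time in Kaede-red cells 5 were higher without overlap, against 11.8%.

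These directions depend in part on scaling. When libraries were scaled by their counts outside Rn45s, the median log2 fold change of all genes moved from 0.05 to 0.93 at 24h and from 0.03 to 0.68 at 72h, and the share of called genes that were higher in Kaede-red cells moved from 42.7% to 98.3% at 24h and from 47.9% to 91.6% at 72h. Among genes called with time in Kaede-red cells, the share that rose moved from 56.6% to 37.3%, and among genes whose red-green difference changed it moved from 56.8% to 7.62%. Relative to the median under that scaling, all 8 genes were lower at 24h, and 6 were above and 2 (Plac8 and Chil3) below at 72h, the same split as with TMM. Setting values against that median puts the typical gene back near 0, as TMM does, so this split is no separate check. Without that step, 4 of the 8 were below 0 and 4 above at 24h, and 1 was below and 7 above at 72h. Plac8, Vcan, Chil3 and Ace passed at 24h under that scaling as well, with adjusted p from 0.000891 to 0.0255. At 72h 7 of the 8 passed, Plac8 as lower and all but Chil3 of the others as higher, where 3623 of all 9642 genes passed.

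Plac8 encodes a small cysteine-rich protein found in myeloid and lymphoid cells. It lies on chr5:100553725-100572245 (mm10, minus strand). Its level was 984, 939, 844 and 620 CPM in the 4 Kaede-green 24h libraries, and 374, 550, 703 and 538 CPM in the Kaede-green 72h libraries. It was 179, 238, 243 and 231 CPM in Kaede-red 24h libraries and 121, 189, 182 and 89.4 CPM in Kaede-red 72h libraries. The lowest Kaede-green library lay above the highest Kaede-red library, so the colours did not overlap over both times, which was so for 2.94% of all genes. The log2 fold change of Kaede-red against Kaede-green cells was -1.93 ± 0.25 (SE) at 24h and -1.90 ± 0.25 at 72h, with adjusted p of 4.289e-06 and 2.096e-06 by edgeR's quasi-likelihood test. The 2 differences were themselves apart by 0.03 ± 0.34 (adjusted p = 0.980), with a 95% interval from -0.64 to 0.70. The values from 24h to 72h were -0.64 in Kaede-green cells (adjusted p = 0.440) and -0.62 in Kaede-red cells (adjusted p = 0.112), where DESeq2 (-0.66, adjusted p = 0.0393) and a filter of at least 10 counts in every library (-0.69, adjusted p = 0.0337) brought it past the threshold, and the ranges of the times overlapped in both colours. By CPM per kilobase of exon, a level that can be set between genes, Plac8 ranked 14 among 9287 genes in Kaede-green 24h cells, 48 in Kaede-red 24h, 28 in Kaede-green 72h and 59 in Kaede-red 72h cells.

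Ly6c2, which encodes the GPI-anchored surface protein that defines classical monocytes in flow cytometry, was 228, 291, 165 and 134 CPM in Kaede-green 24h libraries. It was 149, 148, 100.1 and 108 CPM in Kaede-red 24h, 78.7, 103, 178 and 211 CPM in Kaede-green 72h, and 169, 243, 195 and 174 CPM in Kaede-red 72h libraries. The 2 colours overlapped at both times. The log2 fold change of Kaede-red against Kaede-green was -0.69 ± 0.26 at 24h (adjusted p = 0.102), then 0.45 ± 0.26 at 72h (adjusted p = 0.243), and neither passed. All 4 Kaede-red 72h libraries lay above all 4 Kaede-red 24h libraries, as was so in that direction for 11.8% of all genes, with a log2 fold change of 0.63 ± 0.26 (adjusted p = 0.127). Ly6c2 ranked 58, 54, 84 and 23 of 9287 genes by CPM per kilobase in Kaede-green 24h, Kaede-red 24h, Kaede-green 72h and Kaede-red 72h cells, so it stayed among the most abundant transcripts of each group. Without Kaede-green 24h replicate 4, the lowest of its group, the 24h value was -0.86 and passed (adjusted p = 0.0372). The red-green difference changed by 1.15 ± 0.36 between the times (adjusted p = 0.109), and by 1.40 when Kaede-green 72h replicate 4 was left out, which passed (adjusted p = 0.0471). The 24h value was -1.21 and passed with the Rn45s share of each library as a covariate (adjusted p = 0.0315), and the value with time in Kaede-red cells passed with only the groups compared (0.62, adjusted p = 0.0308) and with no filter (0.70, adjusted p = 0.0351).

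The paralog Ly6c1 had a course of the same kind. It lay between 36.7 and 74.8 CPM in Kaede-green 24h, between 24.0 and 35.4 CPM in Kaede-red 24h, between 29.5 and 40.1 CPM in Kaede-green 72h and between 34.9 and 84.5 CPM in Kaede-red 72h libraries. It passed where Ly6c2 did not, lower in Kaede-red cells at 24h (log2 fold change -0.98, adjusted p = 0.0104), then higher at 72h (0.75, adjusted p = 0.0301), and with scaling by counts outside Rn45s the 24h value was -0.06 and did not pass (adjusted p = 0.852). Whether the 2 genes differ was not tested.

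Because a count ratio within a library does not depend on scaling, Ly6c2 was also set against Plac8. The ratio of Ly6c2 to Plac8 counts was 0.195 to 0.310 in Kaede-green 24h and 0.187 to 0.392 in Kaede-green 72h libraries, and 0.412 to 0.832 in Kaede-red 24h and 1.07 to 1.95 in Kaede-red 72h libraries. The Kaede-red libraries lay above the Kaede-green libraries at each time, and the 2 Kaede-red groups did not overlap. F13a1 to Plac8 moved alike, from 0.0296 to 0.0760 in the 8 Kaede-green libraries, 0.0620 to 0.204 in Kaede-red 24h and 0.222 to 0.398 in Kaede-red 72h libraries. Both ratios share Plac8, and the genes were chosen with their values known, so no test is given.

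**Figure D2:**
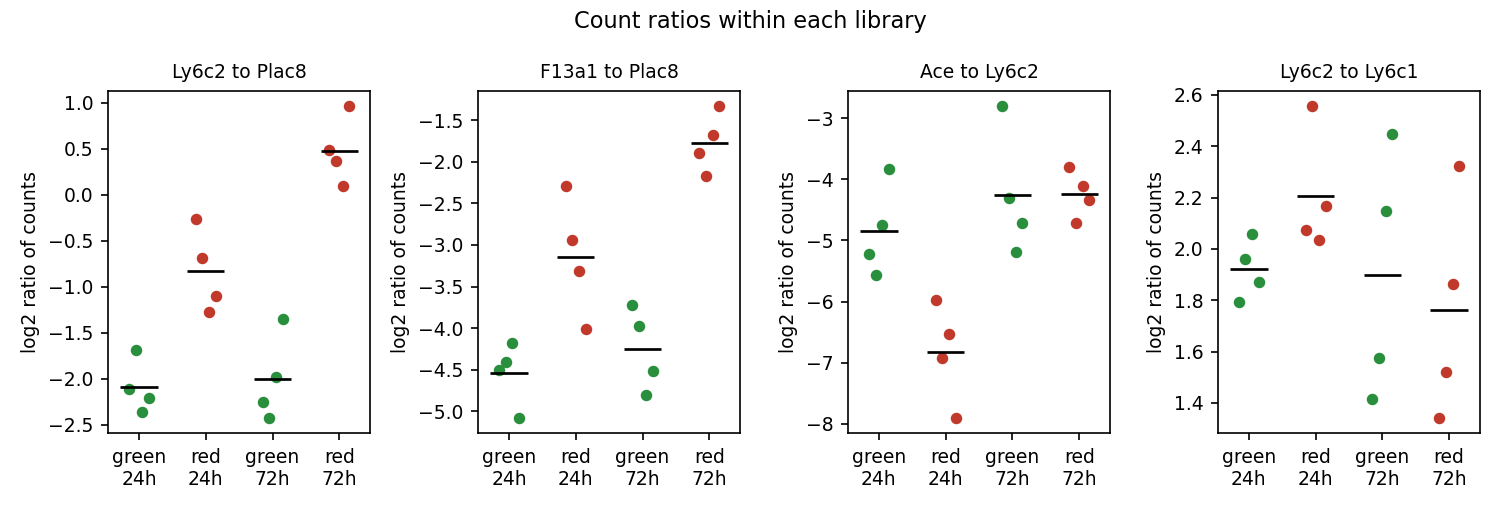
Log2 ratio of the counts of 2 genes in each of the 16 libraries, with 1 point per library and a bar at the mean of each group of 4, in panels with axes of their own. Ly6c2 to Plac8 is above 1 (0 on the log2 axis) in Kaede-red 72h libraries only, and Ace to Ly6c2 is lowest in Kaede-red 24h libraries.

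Vcan and Fn1 encode matrix proteins, the proteoglycan versican and fibronectin, both made by monocytes and by other cells. Vcan, on chr13:89655312-89742509 (mm10), was 65.7, 33.9, 57.2 and 45.3 CPM in Kaede-green 24h and 26.3, 17.7, 11 and 10.3 CPM in Kaede-red 24h libraries. It was 34.6, 39.6, 35.5 and 21 CPM in Kaede-green 72h and 38.5, 46.8, 45.1 and 37.4 CPM in Kaede-red 72h libraries. All Kaede-red 24h libraries lay below all Kaede-green 24h libraries, while the colours overlapped at 72h. The log2 fold change was -1.62 ± 0.26 at 24h (edgeR, adjusted p = 9.175e-05), then 0.36 ± 0.25 at 72h (adjusted p = 0.346). Kaede-red cells rose by 1.35 ± 0.25 from 24h to 72h (adjusted p = 0.00133), with no overlap of the libraries, and the change of the red-green difference was 1.98 ± 0.36 (adjusted p = 0.0130). That last call was lost without Kaede-red 24h replicate 3 (1.86, adjusted p = 0.0536).

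Fn1, on chr1:71585520-71653200 (mm10), was the least variable member. It was 83.6, 78.9, 84.2 and 84.9 CPM in Kaede-green 24h, 87.1, 81.0, 81.4 and 69.2 CPM in Kaede-green 72h, 59.6, 52.2, 49.1 and 71.9 CPM in Kaede-red 24h and 108, 92.7, 108 and 122 CPM in Kaede-red 72h libraries. The Kaede-red libraries lay below all Kaede-green libraries of 24h and above all those of 72h, but neither difference passed (log2 fold change -0.51 ± 0.18, adjusted p = 0.0841, and 0.44 ± 0.18, adjusted p = 0.0902). Kaede-red libraries rose by 0.89 ± 0.18 from 24h to 72h (adjusted p = 0.00261). In DESeq2's Wald test the values at 24h and 72h passed (adjusted p = 0.00703 and 0.0284), as did the change between the times (0.94 ± 0.25 in edgeR, adjusted p = 0.0633 there and 0.00156 in DESeq2). Fibroblasts make both genes. The summed level of the 11 fibroblast markers was 73.2 to 101 CPM in Kaede-green 24h, 34.8 to 79.5 CPM in Kaede-red 24h, 79.8 to 93.3 CPM in Kaede-green 72h and 26.2 to 34.9 CPM in Kaede-red 72h libraries. Among the 7 fibroblast markers tested, 0 rose and 3 fell from 24h to 72h in Kaede-red cells, against 8.67% of all genes in either direction. Col3a1 was among those that fell (-1.12, adjusted p = 0.00484). At 24h, when Vcan was lower in Kaede-red cells, 0 of the 7 passed between the colours, against 7.51% of all genes. Their median log2 fold change was -0.64, against 0.05 over all genes. At 72h 6 of the 7 were lower in Kaede-red cells, against 8.76% of all genes, and over both times 5 were, against 10.3%. The part of fibroblast RNA in the values of Vcan and Fn1 was not tested. The antisense gene Apol7d overlaps Fn1 exons, and it had at most 2 counts in a library.

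Chil3 and F13a1 encode secreted proteins, the chitinase-like lectin Ym1 and the A chain of clotting factor XIII. Chil3, on chr3:106147554-106167564 (mm10), was 111, 112, 133 and 43.7 CPM in Kaede-green 24h and 29.3, 30.5, 15.4 and 12.2 CPM in Kaede-red 24h libraries, which did not overlap. It was 76.1, 78.3, 42.1 and 40.7 CPM in Kaede-green 72h and 43.5, 67.9, 52.8 and 17 CPM in Kaede-red 72h libraries, which overlapped. The log2 fold change was -2.20 ± 0.35 at 24h (edgeR, adjusted p = 8.668e-05), then -0.39 ± 0.33 at 72h (adjusted p = 0.476). In Kaede-red cells Chil3 rose by 1.05 ± 0.33 (adjusted p = 0.0458), although the times overlapped. Leaving out single libraries cost this call in 11 of 16 fits, with values of 0.78 (Kaede-red 72h replicate 2 left out) to 1.33 (Kaede-red 72h replicate 4 left out), and so did 5 of 10 alternatives, DESeq2, RLE factors, scaling by counts outside Rn45s, removal of Rn45s and the Rn45s share as a covariate (0.92 to 1.02, adjusted p from 0.0523 to 0.144). The red-green difference of Chil3 changed by 1.81 ± 0.48 (adjusted p = 0.0610), a value that passed once any of 3 libraries was left out, Kaede-green 24h replicate 4 (2.05, adjusted p = 0.0242), Kaede-red 24h replicate 1 (1.99, adjusted p = 0.0380) or Kaede-red 72h replicate 4 (2.09, adjusted p = 0.0210).

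F13a1, on chr13:36867178-37050244 (mm10), was 43.5, 44.1, 46.4 and 18.4 CPM in Kaede-green 24h and 36.6, 31.0, 24.4 and 14.3 CPM in Kaede-red 24h libraries. It was 28.4, 35, 25 and 23.6 CPM in Kaede-green 72h and 32.5, 41.9, 56.9 and 35.6 CPM in Kaede-red 72h libraries. Every pair of neighbouring groups overlapped. The log2 fold change was -0.52 ± 0.26 at 24h (adjusted p = 0.256), 0.57 ± 0.26 at 72h (adjusted p = 0.135) and 0.64 ± 0.25 from 24h to 72h in Kaede-red cells (adjusted p = 0.112). Over both times it was 0.02 ± 0.19, with a 95% interval from -0.34 to 0.39. The red-green difference changed by 1.09 ± 0.37 (adjusted p = 0.138), which became 1.31 and passed when Kaede-green 24h replicate 4 was left out (adjusted p = 0.0464), and without Kaede-red 24h replicate 1 the value from 24h to 72h in Kaede-red cells was 0.85 and passed (adjusted p = 0.0463). With no filter F13a1 passed at 72h (0.71, adjusted p = 0.0240), with time in Kaede-red cells (0.71, adjusted p = 0.0373) and for the change (1.14, adjusted p = 0.0427). The summed level of 6 platelet and megakaryocyte markers was 0.817 to 6.69 CPM in Kaede-green 24h and 18.5 to 28.5 CPM in Kaede-red 24h libraries. At 72h it was 1.56 to 5.11 CPM in Kaede-green and 6.64 to 18.9 CPM in Kaede-red libraries. The part of such cells in the values of F13a1 was not tested.

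**Figure D3:**
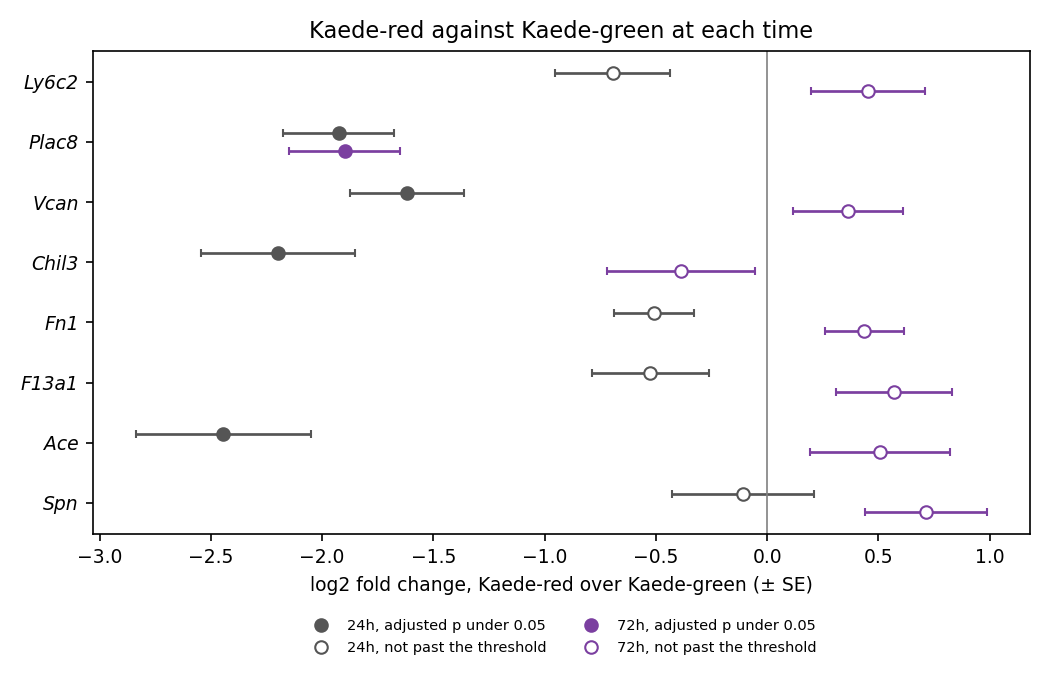
Log2 fold change of Kaede-red over Kaede-green cells with its SE (edgeR, TMM) for each gene at 24h (grey) and at 72h (purple), filled where the adjusted p was under 0.05. All 8 values lie below 0 at 24h (4 of the 8 with scaling by counts outside Rn45s), and Plac8 is the only filled point at 72h.

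Ace and Spn are the 2 non-classical members. Ace encodes angiotensin-converting enzyme, which is also made by endothelial cells. It lies on chr11:105967945-105989964 (mm10, plus strand), and it was 6.13, 6.13, 6.13 and 9.39 CPM in Kaede-green 24h and 11.3, 5.18, 4.86 and 8.04 CPM in Kaede-green 72h libraries. It was 2.37, 1.21, 1.09 and 0.451 CPM in Kaede-red 24h and 12.1, 9.28, 11.3 and 8.64 CPM in Kaede-red 72h libraries. The Kaede-red 24h libraries lay below those of every other group. The counts behind these values were few, 6 to 27 per library in Kaede-red 24h and 11 to 31 in the 8 Kaede-green libraries, against 75 to 411 in Kaede-red 72h libraries, and 2 of the 4 Kaede-red 24h libraries were under the filter's limit of 1.66 CPM, taken before TMM scaling. At 24h Ace was 5.44-fold lower in Kaede-red cells (log2 fold change -2.44 ± 0.39, adjusted p = 0.000105), while its value of 72h missed the threshold (0.51 ± 0.31, adjusted p = 0.290). In Kaede-red cells it rose by 3.01 ± 0.35 on the log2 scale from 24h to 72h (adjusted p = 6.28e-06), the largest value of the 8 genes over the 6 comparisons. The change of the red-green difference was 2.95 ± 0.50 (adjusted p = 0.00763).

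Endothelial markers moved in part with Ace. The summed level of the 8 markers was 12.3 to 21.6 CPM in Kaede-green 24h, 20.3 to 25.8 CPM in Kaede-red 24h, 10.7 to 21.4 CPM in Kaede-green 72h and 27.8 to 42.8 CPM in Kaede-red 72h libraries. The ranges of this sum in the 2 colours overlapped at 24h, when Ace was 5.44-fold lower in Kaede-red cells. The sum was highest in Kaede-red 72h libraries, the group in which the mean of Ace was highest as well. The part of endothelial RNA in the values of Ace was not tested at either time. Kdr, a receptor for VEGF, was the highest of the 8, with 7.15 to 9.81 CPM in Kaede-green 24h, 13.2 to 16.3 CPM in Kaede-red 24h, 5.79 to 10.7 CPM in Kaede-green 72h and 13.7 to 24.6 CPM in Kaede-red 72h libraries. At 72h 3 of the 4 endothelial markers tested were higher in Kaede-red cells, against 16.8% of all genes in either direction. They were Kdr (1.34), Pecam1 (1.36) and Eng (2.16), with adjusted p from 9.427e-05 to 0.0044. The junction gene Cdh5 was at 0.175 to 0.967 CPM in Kaede-red 24h and 0.302 to 1.43 CPM in Kaede-red 72h libraries. Emcn, Tek and Vwf were at 0 in all libraries of a Kaede-green group, while no marker was at 0 in all libraries of a Kaede-red group. Of the 4 tested, Eng rose in Kaede-red cells from 24h to 72h (1.24, adjusted p = 0.0451), against 4.91% of all genes. Neutrophil markers also moved: the summed level of 12 of them was 9.40 to 14.6 CPM in the other 12 libraries and 18.8 to 23.9 CPM in Kaede-red 72h libraries. Csf3r, a receptor that monocytes carry as well, made up 15.3 to 17.1 CPM of the latter. Of the 12 markers, 2 (Camp and Ngp) were at 0 in all Kaede-red 72h libraries. This was so for 6 in Kaede-green 24h, 3 in Kaede-red 24h and 5 in Kaede-green 72h libraries. Kaede-red 72h libraries also had the highest median of counts outside Rn45s. S100a8, which neutrophils hold in abundance, was at most 1.56 CPM in any library. The part of these markers in the rise of Ace, Vcan, Chil3, Fn1 and Spn was not tested. The antisense gene Gm11651 overlaps Ace exons, and it had at most 1 count in a library.

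Spn encodes CD43, a sialylated surface protein that is high on non-classical monocytes and on T cells. It lies on chr7:127132232-127137823 (mm10), and it was 4.46, 4.5, 3.06 and 8.16 CPM in Kaede-green 24h and 3.59, 4.98, 4.89 and 4.90 CPM in Kaede-red 24h libraries. It was 7.29, 5.79, 4.13 and 8.82 CPM in Kaede-green 72h and 12.9, 9.56, 9.66 and 10.3 CPM in Kaede-red 72h libraries, which lay above those of every other group. From 24h to 72h in Kaede-red cells it rose by 1.21 ± 0.26 (adjusted p = 0.00405). Between the colours the log2 fold change was -0.11 ± 0.32 at 24h (adjusted p = 0.888), then 0.71 ± 0.27 at 72h (adjusted p = 0.0713). The 72h value passed without Kaede-green replicate 4 of 24h (0.69, adjusted p = 0.0458) or of 72h (0.91, adjusted p = 0.0395), and the value at 24h was 0.22 without Kaede-green 24h replicate 4. The 8 T and NK cell markers together were at most 3.67 CPM in any library.

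Set against Ly6c2 within each library, the 2 non-classical genes differed at 24h. The ratio of Ace to Ly6c2 counts was 0.00419 to 0.0159 in Kaede-red 24h libraries, below the 0.0211 to 0.144 of the other 12 libraries. The ratio of Spn to Ly6c2 was 0.0241 to 0.0488 in Kaede-red 24h libraries, within the 0.0155 to 0.0926 of the other 12.

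**Figure D4:**
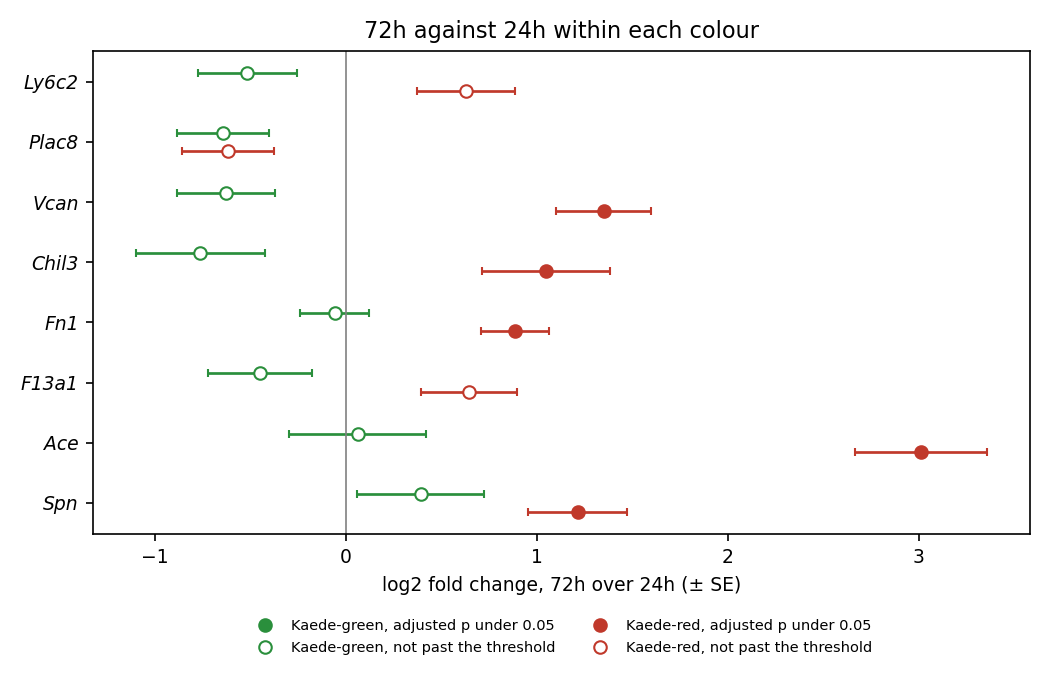
Log2 fold change of 72h over 24h with its SE (edgeR, TMM) for each gene in Kaede-green (green) and Kaede-red cells (red), filled where the adjusted p was under 0.05. In Kaede-red cells 5 points are filled, all above 0, and Plac8 is the 1 value below 0, while in Kaede-green cells no point is filled.

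Over both times together, Plac8 (-1.91 ± 0.18, adjusted p = 2.507e-09), Chil3 (-1.29 ± 0.24, adjusted p = 0.000147), Ace (-0.97 ± 0.25, adjusted p = 0.00547) and Vcan (-0.63 ± 0.18, adjusted p = 0.0106) were lower in Kaede-red cells in edgeR's test, 4 of 8 against 10.3% of all genes lower and 20.2% in either direction. Of these, only Plac8 passed in both times apart, so for Vcan and Ace, whose differences changed between the times, the joint value is a mean over unlike differences. With the Rn45s share of each library as a covariate, the values of Vcan, Chil3 and Ace no longer passed (adjusted p = 0.203, 0.148 and 0.148), although they were no smaller (-0.92, -1.41 and -1.34), and 156 genes in all passed in place of 1950, while the 4 genes still passed at 24h (adjusted p from 0.00204 to 0.0146). With scaling by counts outside Rn45s, Vcan turned to 0.15 and Ace did not pass (-0.21), while Ly6c2 (0.64), Fn1 (0.73), F13a1 (0.80) and Spn (1.05) passed as higher (adjusted p from 7.618e-05 to 0.0042), where the median of all genes was 0.82 and 6123 of them passed. The joint values of Ly6c2 (-0.12 ± 0.18), Fn1 (-0.04 ± 0.13) and Spn (0.30 ± 0.21) did not pass, with 95% intervals from -0.48 to 0.24, -0.28 to 0.21 and -0.11 to 0.71.

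The order of the group means shows which differences stand clear of the spread. Kaede-red 24h had the lowest mean for 7 of the 8 members, all but Plac8, for which Kaede-red 72h was lowest. Of 24 pairs of neighbours in the 8 orders, the libraries overlapped in all but 4. For Plac8, Kaede-red 24h lay below Kaede-green 72h, and for Ace, Kaede-red 24h lay below Kaede-green 24h. For Fn1, Kaede-red 72h lay above Kaede-green 24h, and for Spn, Kaede-red 72h lay above Kaede-green 72h.

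The genes whose levels ran most like each member over the 16 libraries were found by the root mean square difference of centred log2 CPM, among 9642 genes tested. Ly6c2 ran closest to the interferon-induced Ifitm3 (0.23) and Ifitm2 (0.26) and to Zfp36 (0.28). Plac8 ran closest to S100a10 (0.25) and the ribosomal protein genes Rpl22l1 (0.25) and Rps25 (0.28). Genes close to Vcan included Thbs1 (0.38) and the integrin gene Itga4 (0.43), and Chil3 ran closest to Lyz2 (0.45), Hp (0.47) and Glipr2 (0.49). Fn1 ran closest to Ubr4 (0.15), Helz2 (0.18) and Evl (0.18), and F13a1 to Rhoa (0.27), Gpr132 (0.28) and Tpst2 (0.30). Ace, with few counts, had no gene nearer than Cd177 (0.64), F5 (0.66) and Hp (0.72), and Spn ran closest to Endod1 (0.33), Plxnb2 (0.34) and Prpf8 (0.34).

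Other genes of classical monocytes were taken from a list of 12 that holds no member. At 24h 9 of the 12 were lower in Kaede-red cells, against 4.30% of all genes, and 0 higher, with a median log2 fold change of -1.05 against 0.05 over all genes. At 72h 4 were lower and 2 higher, against 8.76% of all genes lower and 16.8% in either direction. The median was -0.12 against 0.03. With scaling by counts outside Rn45s, 4 were lower and 3 higher at 24h, with a median of -0.15 against 0.93 over all genes. At 72h 2 were lower and 6 higher under that scaling, with a median of 0.52 against 0.68. Of all 9642 genes, 4647 passed under it at 24h and 3623 at 72h, most of them higher. Mgst1, a glutathione transferase, and S100a4, a calcium-binding protein, passed at both times like Plac8 (Mgst1 -3.05 and -1.67, S100a4 -2.39 and -2.31, adjusted p from 4.458e-08 to 6.287e-05). Hp, which encodes haptoglobin, was lower at 24h (-2.45) and missed the threshold at 72h (-0.56, adjusted p = 0.144), where it was 0.08 with scaling by counts outside Rn45s. It rose in Kaede-red cells from 24h to 72h (1.56, adjusted p = 0.00114). In that comparison 5 of the 12 rose, against 4.91% of all genes, among them Hp, Ly6c1, Ifitm6 and Thbs1, and 0 fell. The chemokine receptor gene Ccr2 did not pass at either time with TMM (-0.18, adjusted p = 0.641, and 0.17, adjusted p = 0.613), and with scaling by counts outside Rn45s it was higher at 24h and 72h (0.73 and 0.79), below the all-gene median at 24h and above it at 72h.

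Of a list of 13 other non-classical monocyte genes, 11 were tested. At 24h 4 of these were lower and 1 higher in Kaede-red cells, against 4.30% of all genes lower and 7.51% in either direction. At 72h 1 was lower and 4 higher, against 8.76% lower and 16.8% in either direction. With scaling by counts outside Rn45s, 1 was lower and 2 higher at 24h, then 0 lower and 6 higher at 72h. Of all 9642 genes, 4647 and 3623 passed under that scaling, most of them higher. Nr4a1, the nuclear receptor on which non-classical monocytes depend in blood, was lower at both times (-1.82, adjusted p = 3.761e-07, and -1.03, adjusted p = 0.000367). When scaled by counts outside Rn45s, it passed in edgeR's test at 24h (-0.90, adjusted p = 0.00145) but not at 72h (-0.39, adjusted p = 0.145). Itgal, the alpha chain of LFA-1, was lower at 24h (-0.96, adjusted p = 0.0263, but -0.05 with scaling by counts outside Rn45s) and higher at 72h (0.78, adjusted p = 0.0270). Its change between the times passed (1.75, adjusted p = 0.0281), as did that of Itga4 (1.38, adjusted p = 0.0217). Scaled by counts outside Rn45s, the change of Itga4 did not pass in edgeR's test (1.15, adjusted p = 0.0563). Itgal, Itga4, Cx3cr1 and Pou2f2 rose in Kaede-red cells from 24h to 72h and the lipid carrier gene Fabp4 fell.

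Genes of macrophage maturation went the other way from Plac8, Vcan, Chil3 and Ace at 24h. Of 16 such genes, 12 were higher in Kaede-red cells at 24h, against 7.51% of all genes in either direction. At 72h 10 were higher, against 16.8% in either direction. Under TMM or under scaling by counts outside Rn45s, 0 were lower at either time. Among those higher were the complement gene C1qa (3.26, then 2.18 at 72h, with adjusted p of 1.192e-10 and 5.946e-08) and Adgre1, which encodes F4/80 (1.45 and 1.60). From 24h to 72h in Kaede-red cells 1 of the 16 rose (Csf1r, 1.11, adjusted p = 0.00409), against 4.91% of all genes, and 2 fell (Ms4a7 and Cd63). Of 12 transcription factors of monocytes and macrophages, 5 were higher and 2 lower over both times, against 20.2% of all genes in either direction. Maf (1.12, adjusted p = 1.774e-06) and Nr4a1 were those with the lowest adjusted p. From 24h to 72h in Kaede-red cells 1 of the 12, Zeb2, rose, against 4.91% of all genes.

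**Figure D5:**
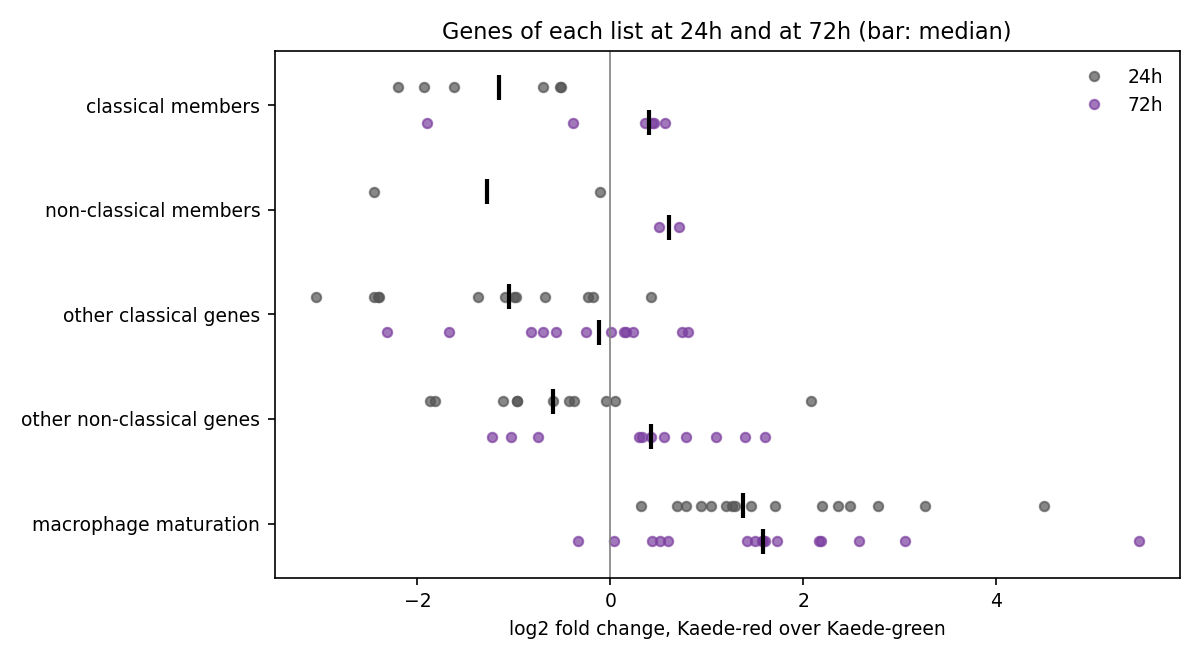
Log2 fold change of Kaede-red over Kaede-green cells (edgeR, TMM) for each tested gene of 5 lists at 24h (grey) and 72h (purple), with a bar at each median. The medians of both monocyte lists without members lie below 0 at 24h, where with scaling by counts outside Rn45s that of the non-classical list is 0.28, and those of macrophage maturation genes lie above 0 at both times.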

How the data were processed

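CD11b+ cells sorted by Kaede colour were profiled by stranded total RNA-seq in 16 libraries, 4 in each of 4 groups, which were assigned from the sample titles. Per the labels and the study's methods, the authors trimmed the reads with Trim Galore, checked them with FastQC, aligned them to mm10 with HISAT2 and deposited the raw counts per gene from featureCounts. The strand setting and the handling of reads that map to several genes are not given in the sources used here.

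Genes were kept by filterByExpr (9642 of 24421). One fit of all 16 libraries by group was made with edgeR 4.0.16 in R 4.3.3 (TMM factors, quasi-likelihood test), with p-values adjusted by Benjamini and Hochberg over all genes tested and a threshold of 0.05. The study's methods name DESeq2, which was run here as an alternative (version 1.42.0, Wald test). The SE of a log2 fold change is its size divided by the square root of the F statistic, and 95% intervals are 1.96 SE to each side of the value. The log2 CPM used for likeness carry a prior count of 2. Exon lengths came from the GENCODE vM21 basic set, in which 23376 of 24421 genes had a length, and start sites from RefSeq. The fit was tested on simulated counts for bias and false calls. The share of changes recovered was no criterion, after a first limit on it was missed: small changes were often not called, most of all for the change between the times, so a value that missed the threshold does not show that there was no change.

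Library sizes included Rn45s, and total counts of 3216858 to 15423085 left as few as 6 counts of Ace in a library, so that counting error was largest for Ace and Spn. No 2 libraries of a group agreed within sampling noise, and none was merged. Not every same-numbered pair of libraries correlated by over 0.1, so the numbers were not taken as pairs and no block was used. Alternatives were DESeq2, RLE factors, scaling by counts outside Rn45s, Rn45s removed, its share as a covariate, other filters, only the groups compared, thinned Kaede-red libraries, a replicate block, and leaving out each library. The members and lists were chosen with earlier results of these data known. Beside the members, the genes named are those of the other lists, at most the 4 with the lowest adjusted p over both times from each, the 3 nearest genes of each member, and checks, except for 1 gene that is not reported here. Ccr2, Ifitm6, Itgal, Cx3cr1, Pou2f2, Csf1r, Ms4a7, Cd63, S100a8, Cd3e, Camp, Ngp, Emcn, Tek, Vwf, Kdr, Pecam1 and Eng were named after their values were seen. A table of all libraries together was not used.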

Additional observations from a re-analysis of the deposited data

Results flagged for a closer look

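In 5 of 32 groups of 4 libraries (8 genes in 4 groups), 1 library stood apart from the other 3 by more than Dixon's test allows at its 95% level, which chance does in about 1 of 20 groups. On the log2 CPM scale, Plac8 was 7.49 in Kaede-red 24h replicate 1 against 7.85 to 7.92 in the others of that group, and Spn was 1.91 in the same library against 2.34 to 2.37. In Kaede-green 24h replicate 4, Chil3 was 5.45 against 6.80 to 7.06, F13a1 was 4.21 against 5.45 to 5.54, and Ace was 3.26 against 2.65 to 2.66. The 24h differences of Plac8, Chil3 and Ace passed in every fit that left out 1 library.

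The red-green difference changed between 24h and 72h for Vcan, by 1.98 on the log2 scale, and for Ace, by 2.95, each past the threshold of edgeR's test of that change.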

How the results depend on the processing

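Of 452 values of single genes under 10 alternatives to the reported fit, 395 kept their direction and side of the threshold, 29 came to pass it, 9 no longer did and 19 turned. Of the 8 genes, those called at 72h were 1 as reported, 2 with DESeq2, 7 with scaling by counts outside Rn45s (6 of them higher, with 3623 of all genes called), 3 with no filter and 2 with at least 10 counts in every library (a filter that Ace and Spn did not pass, so that they were not tested). Those called for the change between the times were 2 as reported, 4 with DESeq2 and 5 with no filter, and those called over both times were 4 as reported, 6 with scaling by counts outside Rn45s (4 of them higher) and 1 with the Rn45s share as a covariate. Leaving out 1 library gave 1 to 2 genes at 72h (2 without Kaede-green 24h or 72h replicate 4) and 1 to 4 for the change (4 without Kaede-green 24h replicate 4, 1 without Kaede-red 24h replicate 3). The turned values were uncalled in the reported fit, except that of Vcan over both times. With scaling by counts outside Rn45s they were, over both times, Ly6c2 0.64, Vcan 0.15 and Fn1 0.73, at 24h Ly6c2 0.24, Fn1 0.37, F13a1 0.40 and Spn 0.74, at 72h Chil3 0.25, with time in Kaede-green cells Fn1 0.10, and for the change Plac8 -0.30. TMM holds the typical fold change near 0 by construction, and scaling by counts outside Rn45s does not. Which of them is nearer to the RNA of the cells was not tested. Over both times F13a1 was -4e-04 with RLE factors, Ly6c2 was 1e-04 and Fn1 0.0818 with no filter, Fn1 was 0.0526 with at least 10 counts (Plac8 -0.12 for the change), and Fn1 was 0.0366 and F13a1 -0.27 with the covariate, which also gave Ly6c2 -0.18 at 72h and Ace -0.0334 with time in Kaede-green cells. The cause was not tested. Leaving out 1 library moved Ly6c2 over both times from -0.24 to 0.0043, F13a1 from -0.11 to 0.13, Spn at 24h from -0.36 to 0.22, Plac8 for the change from -0.13 to 0.20, and, with time in Kaede-green cells, Fn1 from -0.12 to 0.0044 and Ace from -0.22 to 0.22.

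Same-numbered libraries correlated by -0.02 to 0.15 in 8 pairs (1 over 0.1) and 2 libraries correlated best with their own number, so the numbers were not taken as pairs. At 24h, however, all green and red libraries within replicates 1 and 2 or within 3 and 4 correlated by 0.0493 to 0.153, and all between these pairs of numbers by -0.132 to -0.0270. At 72h the 16 correlations were -0.0556 to 0.0595. With the replicate block, F13a1 with time in Kaede-red cells (0.70, adjusted p = 0.0389) and Chil3 for the change (1.70, adjusted p = 0.0165) came to pass, and no other call of the 8 genes changed. At these depths a change in Ace or Spn rests on 8 to 34 counts in Kaede-green libraries.

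Over all genes, the calls for the change between the times were 74 as reported (of 9642 tested), 321 with DESeq2, 161 with at least 10 counts (of 3084 tested), 216 with no filter (of 21040 tested), 43 with thinned Kaede-red libraries and 34 with the covariate. Leaving out 1 library gave 2 to 157, the lowest with Kaede-red 24h replicate 3 left out and the highest with replicate 1 of that group. That count moved by over 1.5 times without any library but Kaede-green 24h replicate 1 and Kaede-green 72h replicates 1 and 4. Those with time in Kaede-red cells were 836 as reported, 1263 with DESeq2, 1611 with only the groups compared and 110 with the covariate, and 291, 536 and 398 without Kaede-red 72h replicate 1, 2 or 4 and 297 and 340 without Kaede-red 24h replicate 3 or 4. At 24h they were 724 as reported, 4647 with scaling by counts outside Rn45s and 206 with the covariate, and at 72h 1623, 3623 and 102. Those over both times were 1950 as reported, 6123 with scaling by counts outside Rn45s and 156 with the covariate.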
